A study of Homo sapiens with 13 samples.

Results

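The 7 human sirtuins, SIRT1 to SIRT7, were followed by taking every array probe that the annotation of the array assigns to 1 of these 7 gene symbols. This gave 13 probes for 7 genes, out of 34127 non-control probes. All 13 were well above background on all 13 arrays and lay among the 22754 probes kept for the tests, so no sirtuin was lost to low signal. The cells were CCRF-CEM, a human line derived from an acute leukemia of the T lymphoblast lineage. Parental cells (CEM PA) were measured after 48 h with DMSO (mock, n = 3) or with 5 nM FK866 (n = 2), and FK866-resistant cells (CEM RES) after the same 48 h with DMSO (n = 4) or 5 nM FK866 (n = 4). CEM RES had been selected by stepwise increases of FK866, were resistant to 100 nM and were routinely kept under the drug, so mock-treated CEM RES were not drug-naive cells. All 4 groups descend from 1 line, and whether CEM RES is a single clone is not given in the sources used here.

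Sirtuins remove acetyl and other acyl groups from lysines of histones, transcription factors and enzymes, and each reaction consumes NAD+ and releases nicotinamide. NAMPT, the enzyme that FK866 inhibits, starts the recycling of that nicotinamide into NAD+, so sirtuins draw on the NAD+ pool that the drug lowers. SIRT1, SIRT6 and SIRT7 are mainly nuclear, SIRT2 is mainly cytosolic, and SIRT3, SIRT4 and SIRT5 work mainly in mitochondria. The arrays measured transcripts, neither protein nor deacylase activity.

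The T lineage identity of the line was checked first. Of 10 T lineage markers, 9 were on the array by name and all 9 were well above background on all 13 arrays, with CD3D, a chain of the T cell receptor complex, between 16.7 and 17.0 on the log2 scale. Of these 9, 4 differed between the mock-treated lines by adjusted p, CD3E (1.12) and CD3G (1.20) being higher in CEM RES and CD5 (-1.96) and PTCRA (-1.24) lower. The epithelial gene EPCAM was well above background on 0 of 13 arrays. The B cell gene CD79A (10.8 to 11.8) was well above background on all 13 arrays, PAX5, which defines that lineage, on 8, and the myeloid gene MPO on 1. CD79A differed by -0.42 in mock CEM RES from mock CEM PA (adjusted p = 0.0779). The part of such lineage markers in the sirtuin results was not tested. The number of spots well above background ranged from 26457 to 33239 of 43118 per array. CEM PA arrays were scanned in sessions 1 and 2 and CEM RES arrays in session 3, so the cell line and the scan session cannot be told apart. Within CEM PA, 1 FK866 and 1 mock array shared session 1. The labels call the samples of a group biological replicates without saying whether they came from separate cultures, so p-values measure the spread between these samples.

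Each probe is a 60-base oligonucleotide, and 4 sirtuins had more than 1. The probes shown here are those whose position matters for the results, written 5′ to 3′ in lower case. SIRT7 had a pair of adjoining probes on the minus strand of hg19, A_33_P3391727 at chr17:79870294-79870353 and A_23_P66813 at chr17:79870239-79870298, which share the 5 bases in capitals. Of A_23_P66813 the first 30 bases are given.
A_33_P3391727: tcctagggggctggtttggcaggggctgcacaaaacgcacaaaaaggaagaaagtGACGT
A_23_P66813: GACGTaatcacgtgctcgatgaagaacagt

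SIRT5 had 4 probes on the plus strand of chromosome 6, which the array's annotation assigns to overlapping sets of transcripts. A_33_P3764802 (chr6:13612209-13612268) and A_32_P151366 (chr6:13614629-13614688) carry the same RefSeq accessions. A_33_P3271755 (chr6:13588636-13588695) and A_23_P307955 (chr6:13605650-13605710) carry another RefSeq accession, but A_33_P3271755 shares an Ensembl transcript with A_33_P3764802. The sequence of A_33_P3271755 and the first 30 bases of the other 3 are given because these probes did not move alike.
A_33_P3764802: tgattccctcgctggaatccaacctgttga
A_32_P151366: agggaagagcacggtcggtacaaatgcatg
A_33_P3271755: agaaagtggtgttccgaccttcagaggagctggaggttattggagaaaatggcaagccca
A_23_P307955: tggaataatgttctctgctacttttaacct

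SIRT3 had 2 probes on the minus strand of chromosome 11, A_33_P3325068 (chr11:224067-224126) and A_24_P85158 (chr11:216148-216207), which lie apart in the gene and so read it at separate places. The first is given whole and of the second the first 30 bases. SIRT1 (A_23_P98022, chr10:69677560-69677619, plus strand) and SIRT6 (A_23_P208847, chr19:4174516-4174575, minus strand) were each read by a single probe, of which the first 30 bases are given. Exon and UTR annotation of hg19 was not used here.
A_33_P3325068: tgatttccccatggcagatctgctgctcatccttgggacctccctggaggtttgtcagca
A_24_P85158: gtggggctatttttaatgagagaaaatctg
A_23_P98022: ctgccttaaaactagagatcaactttctca
A_23_P208847: tgtggattctttttctctcgtggtctcact

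Values are log2 signals after quantile normalization, and differences are log2 differences from a limma model with the 4 groups, with its standard error (SE). Calls followed 2 rules over all 22754 probes, an adjusted p (Benjamini-Hochberg) under 0.05, and a double threshold of an unadjusted p under 0.05 together with a log2 change beyond 0.75. With FK866 in CEM PA, 1 of 13 sirtuin probes passed each rule, beside 1.53% of all probes for the adjusted p and 6.7% for the double threshold. With FK866 in CEM RES, 0 of 13 passed either rule, beside 0% and 1.3% of all probes. Limma called 0 of all 22754 probes by adjusted p there, where 1171 of them, and 1 of 13 sirtuin probes, had an unadjusted p under 0.05. Between the lines under mock treatment, 5 sirtuin probes of 4 genes passed the adjusted p and 3 probes of 2 genes the double threshold, beside 47.6% and 35.6% of all probes. Between the lines under FK866, 4 probes of 4 genes passed the adjusted p and 3 probes of 3 genes the double threshold, beside 36% and 30.7%. The sirtuin counts between the lines were therefore not above the background of this array, and the members are described one by one.

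**Figure D1:**
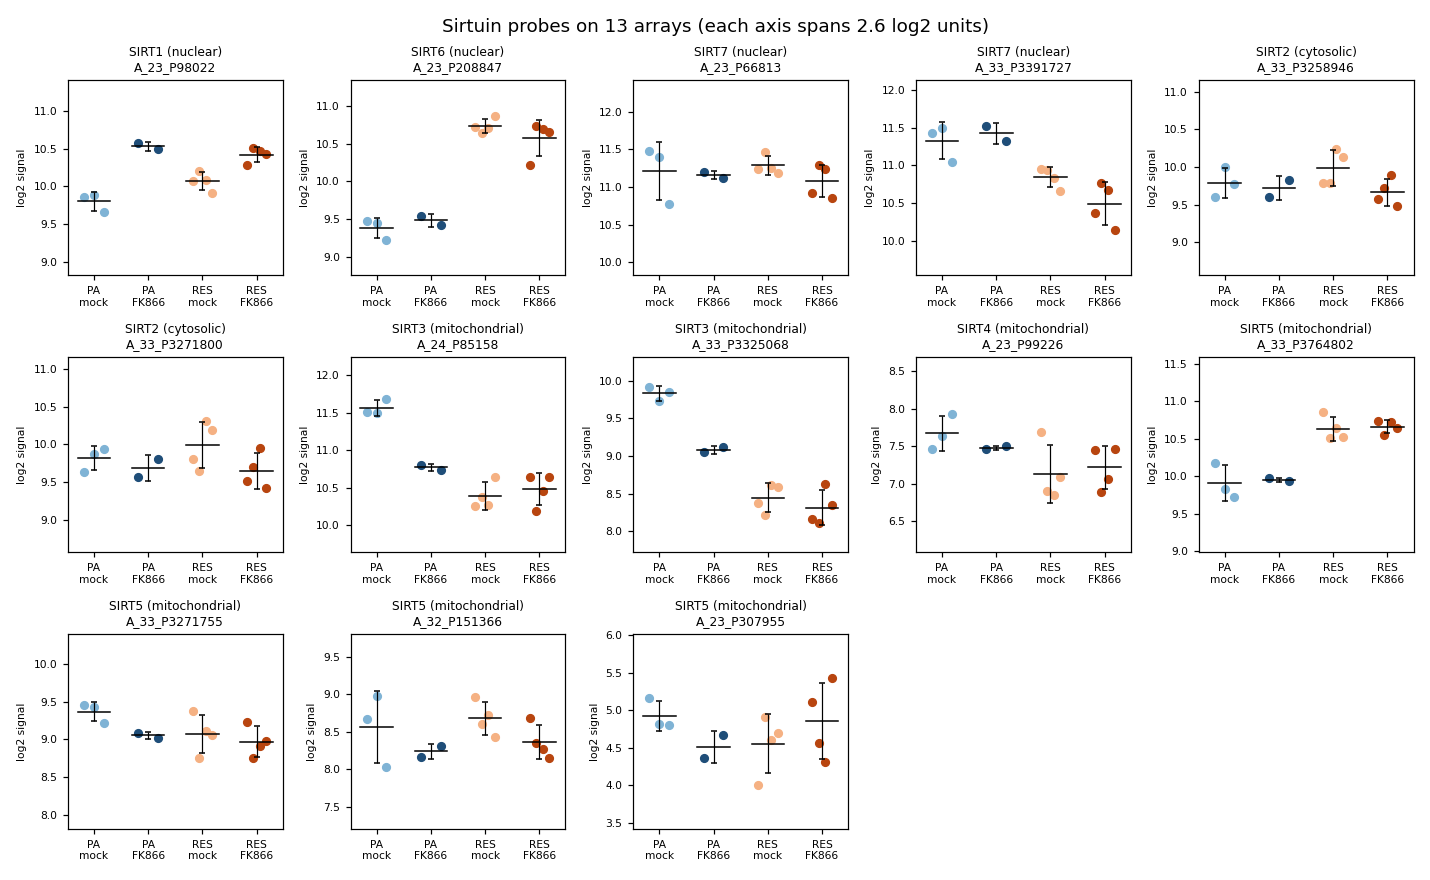
Log2 signal of the 13 sirtuin probes on each of the 13 arrays, 1 panel per probe, in 4 groups (mock and FK866 in CEM PA and CEM RES). Points are arrays, horizontal lines group means and bars SD, and every vertical axis spans the same number of log2 units. SIRT6 is higher in all 8 CEM RES arrays than in all 5 CEM PA arrays, SIRT3 is highest in mock-treated CEM PA, and SIRT1 is lowest there.

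SIRT1, a nuclear deacetylase of transcription factors such as p53 and FOXO proteins, was the sirtuin whose transcript rose with FK866 in CEM PA. Its log2 signal was 9.85, 9.89 and 9.66 on the mock arrays and 10.57 and 10.49 on the FK866 arrays. The groups did not overlap, as for 5 of 13 sirtuin probes and 34.8% of all probes in this comparison. The difference was 0.73 (SE 0.15, 95% interval 0.40 to 1.06), a 1.66-fold rise with an adjusted p of 0.0368, just short of the fold limit of the double threshold. It was 0.72 in scan session 1 and 0.72 in session 2. The direction held in all 26 alternatives and the adjusted p passed in 12 of them, ranging from 0.00851 to 0.488. It did not pass when any of the 5 CEM PA arrays was left out, where the difference was between 0.66 and 0.78. It also did not pass without CEM RES mock array 3 or 4 or CEM RES FK866 array 2, 3 or 4. In those fits the difference was not altered but its SE was.

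In CEM RES, SIRT1 was 10.07, 10.20, 10.09 and 9.91 on the mock arrays and 10.28, 10.51, 10.47 and 10.43 on the FK866 arrays. All 4 FK866 arrays lay above all 4 mock arrays, which was so for 1 of 13 sirtuin probes and 2.91% of all probes. The difference of 0.35 (SE 0.12, 95% interval 0.10 to 0.61) had an unadjusted p of 0.0112 and an adjusted p of 0.938, so it was not called. It was 0.33 on one slide and 0.37 on the other. The response in CEM RES minus that in CEM PA was -0.38 (95% interval -0.80 to 0.04, adjusted p = 0.460), and a difference between the responses was not shown. Under mock treatment SIRT1 in CEM RES was 0.27 above CEM PA (adjusted p = 0.103), and under FK866 it was -0.11 relative to CEM PA (95% interval -0.43 to 0.21). In order of mean level, mock CEM PA came lowest (9.80 ± 0.13, SD, n = 3), then mock CEM RES (10.07 ± 0.12, n = 4), FK866 CEM RES (10.42 ± 0.10, n = 4) and FK866 CEM PA (10.53 ± 0.06, n = 2), and the last 2 overlapped.

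The region before the SIRT1 start site is shown because SIRT1 was the member called with FK866 in CEM PA. It holds the 250 bases of the plus strand at chr10:67884406-67884655 (RefSeq, GRCh38.p14), with matches to the GC box GGGCGG and to the E-box CACGTG on either strand in capitals. The SIRT1 window holds 4 GC box and 2 E-box matches. Of 27305 promoters, 42.31% hold a GC box in the same window and 6.49% an E-box, whatever the number of matches. SIRT6, not called with FK866, also holds 4 GC box matches, and SIRT5 holds 2. No E-box match was found before SIRT2 to SIRT6. A match is a description of the letters and not a measured binding site.
SIRT1: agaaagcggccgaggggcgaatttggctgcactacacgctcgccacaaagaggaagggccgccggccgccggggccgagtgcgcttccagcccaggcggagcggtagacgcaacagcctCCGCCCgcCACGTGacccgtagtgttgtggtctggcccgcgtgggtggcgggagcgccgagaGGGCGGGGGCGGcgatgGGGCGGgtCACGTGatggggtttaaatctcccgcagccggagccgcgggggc

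SIRT6, a chromatin-bound deacylase involved in DNA repair and in the restraint of glycolytic genes, was the sirtuin with the largest gain between the lines. Under mock treatment its log2 signal was 9.47, 9.45 and 9.23 in CEM PA, and in CEM RES 10.72, 10.65, 10.71 and 10.87. With FK866 it was 9.54 and 9.42 in CEM PA, and in CEM RES 10.21, 10.74, 10.70 and 10.66. The lowest CEM RES array thus lay above the highest CEM PA array. The lines did not overlap for 48.8% of all probes under mock treatment and for 57.8% under FK866. The share over all 13 arrays was not counted. The line difference was 1.36 under mock treatment (SE 0.15, 2.56-fold, adjusted p = 3.31e-05) and 1.10 under FK866 (SE 0.17, 2.14-fold, adjusted p = 0.000578), and it passed the adjusted p in all 25 alternatives of each comparison. FK866 itself left SIRT6 within 0.10 (95% interval -0.30 to 0.50) of mock in CEM PA and at -0.16 (95% interval -0.47 to 0.15) in CEM RES. The order of groups was mock CEM PA, FK866 CEM PA, FK866 CEM RES and mock CEM RES, and only the step between the lines exceeded the spread.

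SIRT7, a deacylase of the nucleolus linked to ribosomal RNA transcription, gave a different picture at each of its adjoining probes. A_33_P3391727 read 11.44, 11.50 and 11.05 in mock CEM PA and 10.95, 10.94, 10.83 and 10.66 in mock CEM RES. With FK866 the CEM PA arrays read 11.53 and 11.33 and the CEM RES arrays 10.37, 10.76, 10.68 and 10.14. Every CEM RES array lay below every CEM PA array, which is to be read against the shares of all probes given for SIRT6. The line difference was -0.48 under mock treatment (SE 0.18, adjusted p = 0.0422) and -0.94 under FK866 (SE 0.20, adjusted p = 0.00391). The mock call passed in 12 of 24 alternatives, and it was lost without CEM PA mock array 1 (-0.43, adjusted p = 0.119), without CEM PA mock array 2 (-0.40, adjusted p = 0.144) and with the replicate number as a block (-0.39, adjusted p = 0.0727). That block joined arrays of the same number in both lines, although the numbers do not pair the lines. The mock call was also lost with scan session as a random block, with only the compared groups and without the filter on dim probes. Leaving out CEM RES FK866 array 1, CEM RES mock array 2, 3 or 4 or either CEM PA FK866 array lost it too. The FK866 call passed in 23 of 24 and was lost without CEM PA FK866 array 1 (-0.84, adjusted p = 0.0543).

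A_23_P66813 read 11.48, 11.40 and 10.77 in mock CEM PA and 11.24, 11.47, 11.25 and 11.19 in mock CEM RES. Under FK866 CEM PA read 11.20 and 11.12, and CEM RES 10.92, 11.29, 11.24 and 10.86. The lines overlapped. Its line difference was 0.07 under mock treatment (95% interval -0.33 to 0.48) and -0.08 under FK866 (95% interval -0.54 to 0.38). The probes share the edge of 5 bases printed above, and a single direction for SIRT7 between the lines cannot be given from them.

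SIRT2, a mainly cytosolic deacetylase of tubulin and of metabolic enzymes, was read by 2 probes that stayed close together. A_33_P3258946 (chr19:39379734-39379793) read 9.60, 10.00 and 9.78 in mock CEM PA, 9.61 and 9.83 with FK866, 9.79, 9.78, 10.24 and 10.13 in mock CEM RES and 9.58, 9.72, 9.89 and 9.48 with FK866. A_33_P3271800 (chr19:39370273-39370332) read between 9.42 and 10.31 over the same arrays. All 4 groups overlapped. With FK866 the 2 probes differed from mock by -0.08 and -0.13 in CEM PA and by -0.32 (95% interval -0.66 to 0.02) and -0.35 (95% interval -0.73 to 0.04) in CEM RES, and none passed. Between the lines they differed by 0.19 and 0.17 under mock treatment and by -0.05 and -0.04 under FK866.

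SIRT3, the main deacetylase of the mitochondrial matrix, was the sirtuin with the largest loss between the lines, and both of its probes showed it. A_24_P85158 read 11.51, 11.50 and 11.69 in mock CEM PA and 10.25, 10.38, 10.27 and 10.65 in mock CEM RES. A_33_P3325068 read 9.93, 9.73 and 9.85 in mock CEM PA and 8.38, 8.21, 8.61 and 8.59 in mock CEM RES. The lines did not overlap at either probe, as for 6 of 13 sirtuin probes and 48.8% of all probes. The line difference was -1.18 (SE 0.15, 0.442 of the parental signal, adjusted p = 8.88e-05) and -1.39 (SE 0.16, 0.382 of the parental signal, adjusted p = 3.60e-05). Both passed the adjusted p in every alternative, 25 for the first probe and 24 for the second.

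With FK866, SIRT3 in CEM PA read 10.80 and 10.74 at A_24_P85158 and 9.05 and 9.12 at A_33_P3325068, below all 3 mock arrays at each probe. The differences from mock were -0.80 (SE 0.18, 95% interval -1.19 to -0.40, adjusted p = 0.0563) and -0.75 (SE 0.19, 95% interval -1.16 to -0.34, adjusted p = 0.0736). The first passed the double threshold and neither passed the adjusted p. At the first probe the double threshold was missed with 75th percentile scaling (-0.73), with slide (-0.71) or replicate number (-0.73) as a block and without CEM PA mock array 3 (-0.73), and the adjusted p ranged from 0.0161 to 0.658 over its alternatives. In the fit with a replicate block the second probe passed the adjusted p (-0.74, adjusted p = 0.0361) and the first did not (adjusted p = 0.0547). Within scan sessions 1 and 2 they were -0.71 and -0.85 at the first probe and -0.88 and -0.67 at the second. In CEM RES with FK866 the probes read 10.64, 10.19, 10.46 and 10.65, and 8.16, 8.11, 8.62 and 8.34, overlapping the mock arrays. The differences there were 0.10 (95% interval -0.21 to 0.41) and -0.14 (95% interval -0.46 to 0.18). The response in CEM RES minus that in CEM PA was 0.89 (SE 0.23, unadjusted p = 0.00226, adjusted p = 0.138) and 0.61 (SE 0.24, adjusted p = 0.334). The first of these was the sirtuin probe past the double threshold for the difference of responses, 1 of 13 beside 8.03% of all probes, and 0 of 13 passed the adjusted p beside 0.413%.

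Under FK866 the SIRT3 line difference was -0.29 (95% interval -0.67 to 0.09, adjusted p = 0.219) at A_24_P85158 and -0.78 (SE 0.18, adjusted p = 0.00558) at A_33_P3325068. CEM RES arrays lay below both CEM PA FK866 arrays at each probe, as for 5 of 13 sirtuin probes and 57.8% of all probes. The call at A_33_P3325068 passed in 23 of 24 alternatives and was lost without CEM PA FK866 array 2 (-0.74, adjusted p = 0.0509). At A_24_P85158 the group means fell in the order mock CEM PA (11.57 ± 0.10, SD, n = 3), FK866 CEM PA (10.77 ± 0.04, n = 2), FK866 CEM RES (10.48 ± 0.21, n = 4) and mock CEM RES (10.39 ± 0.18, n = 4), and the last 2 overlapped.

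SIRT4, a mitochondrial sirtuin known for restraining glutamate dehydrogenase, was read by a single probe, A_23_P99226 (chr12:120750879-120750938). It read 7.46, 7.63 and 7.92 in mock CEM PA and 7.68, 6.90, 6.85 and 7.09 in mock CEM RES. The lines overlapped through 1 CEM RES array. The line difference of -0.54 (SE 0.22, 95% interval -1.02 to -0.06) had an adjusted p of 0.0610, and it passed in 4 of 25 alternatives. With FK866 the probe read 7.45 and 7.50 in CEM PA, and in CEM RES 7.45, 6.88, 7.07 and 7.46, a difference from mock of -0.20 (95% interval -0.77 to 0.38) and 0.09 (95% interval -0.36 to 0.53).

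SIRT5, the mitochondrial desuccinylase and demalonylase, was higher in CEM RES at 1 of its 4 probes. A_33_P3764802 read 10.18, 9.82 and 9.72 in mock CEM PA and 10.86, 10.51, 10.64 and 10.52 in mock CEM RES. With FK866 the CEM PA arrays read 9.97 and 9.93 and those of CEM RES 10.74, 10.55, 10.72 and 10.64. All 8 CEM RES arrays lay above all 5 CEM PA arrays, again to be read against the shares of all probes given for SIRT6. The line difference was 0.73 under mock treatment (SE 0.15, adjusted p = 0.00168, 25 of 25 alternatives) and 0.71 under FK866 (SE 0.17, adjusted p = 0.00603, 24 of 25, lost at an adjusted p of 0.0505 without CEM PA FK866 array 2), short of the fold limit of the double threshold in both.

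The other 3 SIRT5 probes gave line differences of -0.29, 0.12 and -0.38 under mock treatment and -0.08, 0.13 and 0.34 under FK866, with 95% intervals that all included 0. A_33_P3271755 read 9.46, 9.44 and 9.22 in mock CEM PA and 9.37, 8.76, 9.11 and 9.06 in mock CEM RES. A_32_P151366 read between 8.03 and 8.97 over the 13 arrays and A_23_P307955, the dimmest sirtuin probe, between 4.00 and 5.43. FK866 changed none of the 4 SIRT5 probes by either rule in either line, with differences from -0.42 to 0.04 in CEM PA and from -0.31 to 0.30 in CEM RES.

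**Figure D2:**
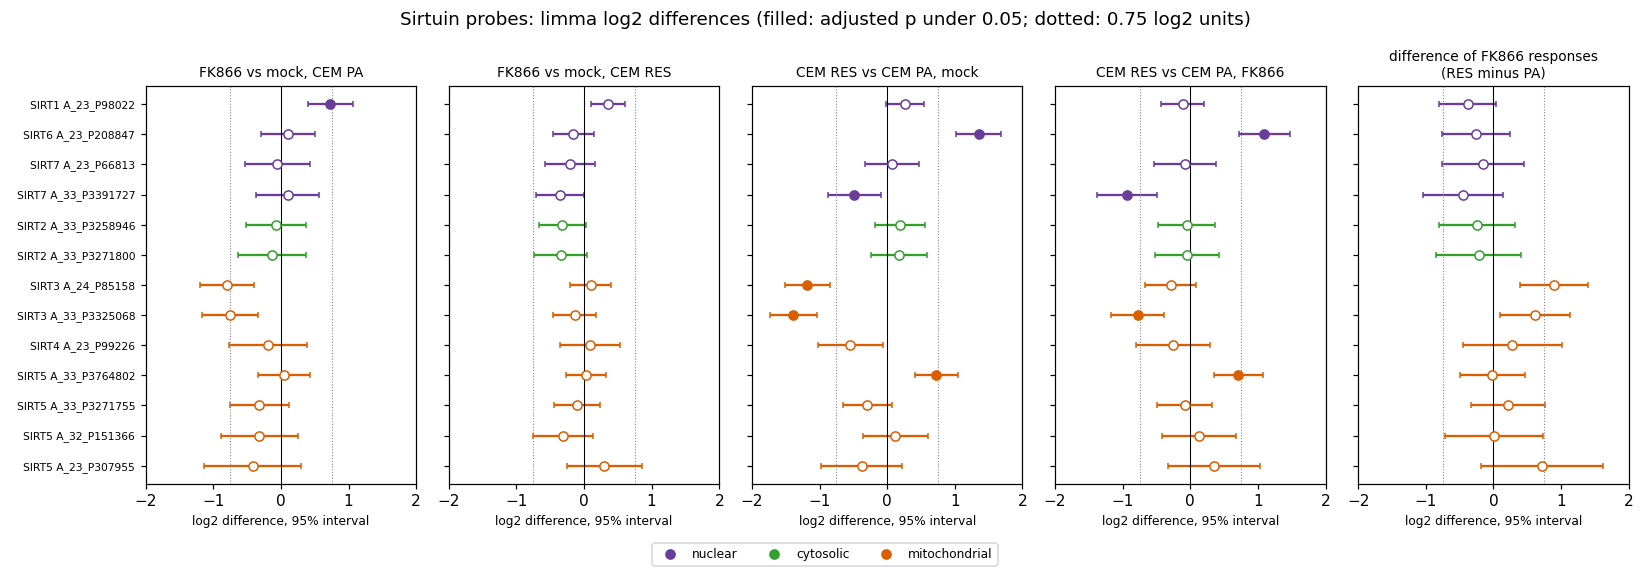
Log2 differences (horizontal axis) of the 13 sirtuin probes in 5 comparisons, with 95% intervals from limma. Colours give the compartment, filled points an adjusted p under 0.05 over 22754 probes, and dotted lines the fold limit of 0.75. SIRT1 is the filled point for FK866 in CEM PA, none is filled for FK866 in CEM RES, and SIRT3 and SIRT6 lie farthest from 0, on opposite sides, between the mock-treated lines.

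Since probes of 1 gene disagreed, each pair was also compared within an array, as the log2 signal of one probe minus the other, over 5 CEM PA and 8 CEM RES arrays. This was chosen after the values had been seen, and 9 pairs of probes were compared by a two-sided exact permutation test over arrays. For SIRT7, A_23_P66813 minus A_33_P3391727 was -0.17 ± 0.15 (SD, n = 5) in CEM PA and 0.52 ± 0.12 (n = 8) in CEM RES, without overlap (exact permutation p = 0.0016, adjusted p = 0.0047). For SIRT5, A_33_P3764802 minus A_33_P3271755 rose from 0.68 ± 0.23 to 1.62 ± 0.15, again without overlap (exact permutation p = 0.0016, adjusted p = 0.0047). The smallest p this design gives is 0.0016. The test takes arrays as independent, although mock and FK866 arrays of a line with the same replicate number deviated together. With such arrays averaged first, 3 values of CEM PA stood against 4 of CEM RES. Both pairs again had no overlap, at an exact permutation p of 0.0571, which is the smallest this smaller design gives and so cannot pass (adjusted p = 0.129).

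A_33_P3764802 also gained on A_32_P151366, which carries the same RefSeq accessions, from 1.49 to 2.13 (exact permutation p = 0.0016, adjusted p = 0.0047). It too reached only 0.0571 over replicate numbers in the exact permutation test. The SIRT3 pair moved less, from 1.71 ± 0.11 to 2.06 ± 0.27 with overlap (exact permutation p = 0.0155, adjusted p = 0.028; over replicate numbers p = 0.114). The SIRT2 pair differed by 0.01 between the lines (exact permutation p = 0.819). A difference within an array shows that 2 probes changed unequally and does not say which of them held still. Whether the lines differ in transcript forms at these places, or in sequence under a probe, was not tested, and the lines were scanned in separate sessions.

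**Figure D3:**
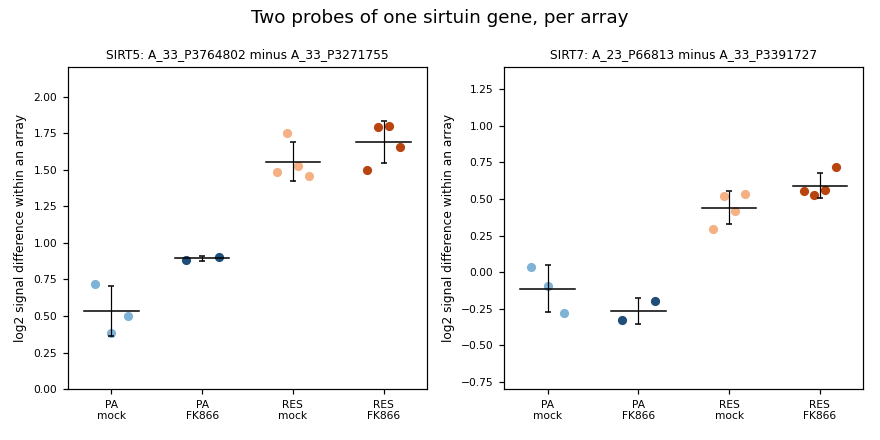
Log2 signal of one probe minus another probe of the same gene within each array (vertical axis), for SIRT5 and SIRT7 in 4 groups. Points are arrays, horizontal lines means and bars SD. In both panels all 8 CEM RES arrays lie above all 5 CEM PA arrays.

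By compartment, the sirtuins did not move as blocks between the lines. Of the 7 mitochondrial probes 4 belong to SIRT5, so the medians of that compartment weigh SIRT5 most. With FK866 in CEM PA, the 4 probes of nuclear sirtuins had differences from -0.05 to 0.73 (median 0.10), the 2 of SIRT2 had a median of -0.10, and the 7 of mitochondrial sirtuins ranged from -0.80 to 0.04 (median -0.32), beside a median of -0.003 over all probes. Of the mitochondrial probes, 6 were lower and 1 higher in CEM PA. In CEM RES the medians were -0.18, -0.33 and 0.03, beside -0.02 over all probes. For the response in CEM RES minus that in CEM PA, all 4 nuclear probes (median -0.32) and both SIRT2 probes (median -0.23) were below 0. Of the 7 mitochondrial probes 6 were above 0 (median 0.28), beside a median of -0.02 over all probes. Among these 6, SIRT5 A_32_P151366 lay at 0.007 and changed sign in 7 of 24 alternatives. SIRT5 A_23_P307955 (0.72, SE 0.42) was the dimmest sirtuin probe. The share of all probes above 0 was not counted. No sirtuin probe passed the adjusted p for the difference of responses. Between the mock-treated lines the nuclear probes ranged from -0.48 to 1.36 and the mitochondrial probes from -1.39 to 0.73. Each compartment thus held members on either side of 0 between the lines, except SIRT2. Scaling to the 75th percentile instead of quantile normalization moved the median of all probes from 0.04 to 0.17 between the mock-treated lines and from 0.06 to 0.20 under FK866, and it left the direction of each called sirtuin probe as given.

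SIRT1 and SIRT6 were also set against SIRT3 at its brighter probe, with no test since these 3 genes were picked from their values. Within an array, SIRT1 minus SIRT3 was -1.66, -1.61 and -2.03 in mock CEM PA and -0.23 and -0.25 with FK866. In CEM RES it was -0.19, -0.17, -0.18 and -0.74 under mock treatment and -0.36, 0.31, 0.01 and -0.22 with FK866. CEM PA under FK866 lay within the range of the CEM RES arrays and apart from mock CEM PA. SIRT6 minus SIRT3 averaged -2.18 ± 0.24 (SD, n = 3) in mock CEM PA and -1.29 ± 0.05 (n = 2) with FK866, against 0.35 ± 0.12 (n = 4) in mock CEM RES and 0.10 ± 0.41 (n = 4) with FK866, so for this difference CEM PA under FK866 stayed apart from CEM RES. The change of such a difference between groups can be read, and its absolute size cannot, since probes differ in brightness.

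**Figure D4:**
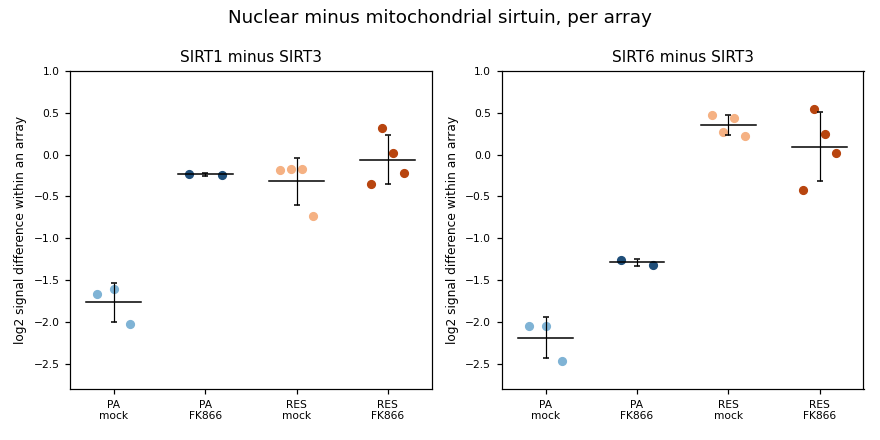
Log2 signal of SIRT1 (left) or SIRT6 (right) minus that of SIRT3 probe A_24_P85158 within each array, in 4 groups. Points are arrays, horizontal lines means and bars SD. For SIRT1 minus SIRT3, mock-treated CEM PA arrays lie below -1.6 and all other arrays above -0.8.

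SIRT3 lies head to head with PSMD13, a subunit of the proteasome regulatory particle, and their RefSeq start sites are 45 bases apart on opposite strands. The 44 bases between them (chr11:236932-236975, GRCh38.p14, given on the SIRT3 strand, so from the PSMD13 start to the SIRT3 start) are shown because the 2 genes moved in opposite directions. The capitals mark a match to the ETS core CCGGAAG on the other strand. In the window of 250 bases before the start, 8.82% of promoters hold such a match. SIRT6, which was higher in CEM RES, also holds 1, and none was found before SIRT1, SIRT2, SIRT4 or SIRT5.
PSMD13 to SIRT3: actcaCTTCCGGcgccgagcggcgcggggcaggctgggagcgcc

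PSMD13 (probe A_23_P75889) read 12.75, 12.58 and 12.32 in mock CEM PA and 13.15, 13.34, 13.96 and 13.30 in mock CEM RES. PSMD13 thus did not overlap between the mock-treated lines, as for 48.8% of all probes. It was 0.89 higher in CEM RES under mock treatment (SE 0.24, adjusted p = 0.010) and 0.88 higher under FK866 (SE 0.28, adjusted p = 0.0267), where SIRT3 was lower. With FK866 in CEM PA, PSMD13 changed by -0.22 (SE 0.29, adjusted p = 0.814), beside -0.80 and -0.75 for SIRT3. SIRT2 lies 48 bases from NFKBIB, an inhibitor of NF-kappaB, whose 2 probes differed by 1.52 (adjusted p = 0.000201) and -0.36 (adjusted p = 0.479) between the mock-treated lines, while SIRT2 was not called. SIRT6 lies 126 bases from ANKRD24, well above background on 8 of 13 arrays and -0.36 between the mock-treated lines (adjusted p = 0.425), where SIRT6 gained 1.36. The start sites of SIRT1 and SIRT4 had no opposite neighbour within 1 kb.

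**Figure D5:**
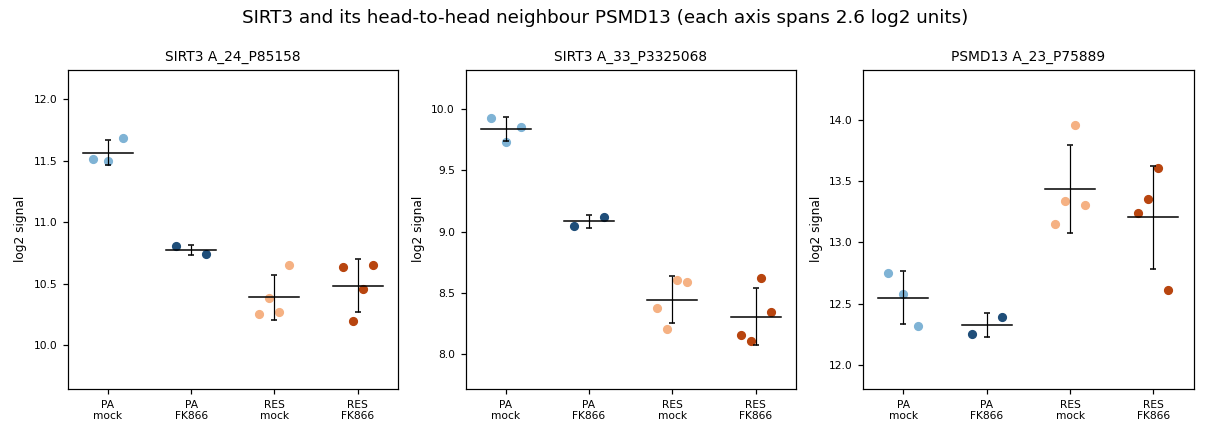
Log2 signal of both SIRT3 probes and of the PSMD13 probe on the 13 arrays in 4 groups, every vertical axis spanning the same number of log2 units. Points are arrays, horizontal lines means and bars SD. SIRT3 is lower and PSMD13 higher in mock-treated CEM RES than in mock-treated CEM PA, and SIRT3 is also lower in CEM PA with FK866.

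Genes that act on sirtuins, supply their NAD+ or are their substrates were counted from lists. The list of regulators and partners also holds PSMD13, the SIRT3 neighbour described above. Of 13 tested regulators and partners, 0 passed the adjusted p with FK866 in CEM PA, and the double threshold was passed upward by PRKAA1, the AMP-activated kinase subunit (0.99, SE 0.26, adjusted p = 0.0866), and downward by HIC1, a repressor of SIRT1 transcription (-1.24, SE 0.36, adjusted p = 0.117). Of all probes, 3.88% passed the double threshold upward and 2.82% downward with FK866 in CEM PA, and 1.53% passed the adjusted p. These shares also apply to the FK866 calls of the lists that follow. In mock-treated CEM RES relative to CEM PA, 3 of 13 regulators and partners were higher and 2 lower by adjusted p. Of all probes, 24.9% were higher and 22.7% lower in this comparison. The counts between the mock-treated lines in the lists that follow are to be read against these shares. None of these counts is a result about its list. The regulators and partners called between the mock-treated lines were NCOR1 (0.67), USP22 (0.48) and PSMD13 (0.89) upward, and CTBP1 (-0.74) and E2F1 (-0.57) downward. The SIRT1 inhibitor CCAR2 was not called in any of these comparisons.

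Of 11 tested genes of NAD+ supply, 0 were called with FK866 in CEM PA, where NADSYN1, the NAD synthetase, changed by -0.69 (adjusted p = 0.151) and NMRK1, a nicotinamide riboside kinase, by -0.69 (adjusted p = 0.150). Between the mock-treated lines 2 were higher and 2 lower by adjusted p, not above the shares of all probes. NAMPT, the FK866 target, was -0.81 (SE 0.19, adjusted p = 0.00454) and NADSYN1 -0.72 (adjusted p = 0.00666) in CEM RES, while IDO1 (3.16, adjusted p = 0.000118) and KMO (0.77, adjusted p = 0.0143), both enzymes of tryptophan breakdown, were higher. IDO1 averaged 2.61 in mock CEM PA, where it was well above background on 2 of 3 arrays, and 5.78 in mock CEM RES, where it was so on 4 of 4, and the size of its difference is uncertain to that extent.

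Of 22 tested substrates of nuclear sirtuins, GABPB1 was the 1 called with FK866 in CEM PA, rising by 0.95 (SE 0.19, adjusted p = 0.0298). Of all probes, 1.11% were higher there by adjusted p and 3.88% by the double threshold. In mock-treated CEM RES, 4 were higher and 5 lower by adjusted p, near the shares of all probes. EP300, a histone acetyltransferase, was 2.08 higher (adjusted p = 0.000347), MYC 1.93 higher (adjusted p = 0.00326) and CRTC2, a coactivator of CREB, -1.33 (adjusted p = 0.000335). FOXO1 and FOXO3, transcription factors deacetylated by SIRT1, were -0.88 (adjusted p = 0.00747) and -0.86 (adjusted p = 0.00523).

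Of 26 tested substrates of mitochondrial sirtuins, 0 were called with FK866 in CEM PA by either rule. Between the mock-treated lines 7 were higher and 5 lower by adjusted p, near the shares of all probes. Higher in CEM RES were MDH2 (1.01, adjusted p = 0.000197), the mitochondrial malate dehydrogenase, and GLUD1 (0.81, adjusted p = 0.00227), the glutamate dehydrogenase that SIRT3 and SIRT4 act on. SOD2 (0.68, adjusted p = 0.000958), the mitochondrial superoxide dismutase, was higher as well. Lower were ACSS1 (-0.86, adjusted p = 0.000181), the mitochondrial acetyl-CoA synthetase, and IDH2 (-0.65, adjusted p = 0.0331), both substrates of SIRT3. Of 16 tested SIRT2 substrates, 0 were called with FK866 in CEM PA, and 2 were higher and 1 lower between the mock-treated lines by adjusted p, namely KMT5A (1.43), PRDX1 (0.93) and TUBA4A (-1.48), a smaller share than the 47.6% of all probes. The median line difference of the 5 lists lay between 0.07 and 0.17, beside 0.04 over all probes, and with FK866 in CEM RES 0 members of any of these lists passed either rule in limma, where 2 nuclear and 1 mitochondrial substrates had an unadjusted p under 0.05, beside 5.15% of all probes. With FK866 in CEM PA an unadjusted p under 0.05 was reached by 3 of 13 regulators and 3 of 11 genes of NAD+ supply. It was also reached by 2 of 22 nuclear, 2 of 16 SIRT2 and 4 of 26 mitochondrial substrates, beside 14.4% of all probes. Between the FK866-treated lines, 2 regulators were higher and 3 lower by adjusted p, as were 3 and 0 genes of NAD+ supply, 3 and 6 nuclear, 5 and 1 SIRT2 and 5 and 4 mitochondrial substrates, beside 18% of all probes higher and 18% lower.

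The profiles most like those of the members with a span of group means of at least 1 log2 unit were taken by the root mean square difference over the 13 arrays between centred log2 signals. For SIRT3 at A_24_P85158 these were DENND3 (0.11), ARPC2 (0.13) and PYROXD2 (0.13), where SIRT3 itself varied by 0.49 about its mean. For SIRT6 they were TBRG4 (0.09), C19orf60 (0.10) and MRPL2 (0.11), where SIRT6 varied by 0.62. DENND3 averaged 12.28 in mock CEM PA, 11.52 with FK866, 11.13 in mock CEM RES and 11.23 with FK866, again highest in mock CEM PA.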

How the data were processed

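RNA of 13 samples in 4 groups was measured on Agilent gene expression arrays with 1 dye. The authors deposited 1 scanner file per array with the background-corrected spot intensity written by Agilent Feature Extraction (version 10.7.3.1 in the file headers, 10.7.7.1 in the submitters' processing notes), without normalization between arrays. A quantile-normalized log2 table, deposited as well, served as an alternative. From the intensities, log2 values were quantile normalized, outlier spots left out and spots of a probe averaged. Probes had to be well above background on each array of 1 or more groups. One model over 4 groups was fitted per probe with limma 3.58.1 (R 4.3.3), with Benjamini-Hochberg adjustment over 22754 probes, and the procedure was tested on simulated data. A fold change limit of 0.75 (log2) and an unadjusted p follow the study's methods.

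The named genes were all probes of SIRT1 to SIRT7, of each list up to 4 genes with the smallest p and any past a threshold, the 3 nearest profiles where group means span 1 log2 unit, and genes starting within 1 kb on the opposite strand. The members and lists were chosen with earlier results of these data known. Mock and FK866 arrays of a line with the same replicate number deviated together (CEM PA, correlations 0.46 and 0.35; CEM RES, 0.20 to 0.47), so the numbers pair them in CEM RES. In CEM PA the number cannot be told apart from the scan session, since both arrays numbered 1 were in session 1 and the others in session 2. There mock array 3 and FK866 array 2 also deviated together (0.26), so pairing by number is not shown in CEM PA. Across lines they were -0.18 to 0.13, so numbers do not pair the lines. Replicate arrays correlated at 0.977 to 0.991. The number of arrays limits the precision. Gene starts and promoter sequences came from RefSeq (GRCh38.p14), probe positions from the array's annotation (hg19). SIRT7 was not in the promoter table used here. Alternatives were 75th percentile scaling, normexp background correction (offset 50), other filters, outlier spots kept, 1 probe or the mean of probes per gene, the deposited table, only the compared groups, slide, replicate number or scan session as a block, array weights, an intensity trend and each array left out.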

Additional observations from a re-analysis of the deposited data

Results flagged for a closer look

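SIRT6 in FK866-treated CEM RES had 1 array apart from the other 3. Its lowest array read 10.21 where the next read 10.66, and this gap was 0.85 of the range of the group, above the limit of 0.829 for 4 samples. Such gaps were looked for in 26 groups of 4 arrays, and chance gives about 1 in 20. That array still lay above every CEM PA array for SIRT6.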

How the results depend on the processing

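Calls depended on the processing mainly for FK866 in CEM PA, where 1 sirtuin gene passed each rule. The double threshold was passed by 2 genes with 75th percentile scaling and with the deposited log2 table and by 0 in the fit with a replicate block. The adjusted p was passed by 2 genes with normexp, with the filter to probes well above background on all arrays, with the replicate block, with array weights and with an intensity trend, and by 0 without a filter, with 1 probe or the mean of probes per gene, with only the compared groups and with slide as a block. Over the arrays left out in turn these counts ranged from 0 to 2 and from 0 to 1. Between the lines under FK866, 1 probe or the mean of probes per gene left 1 gene by the double threshold and 2 by adjusted p, and the arrays left out gave 2 to 4 by adjusted p. Between the mock-treated lines the mean of probes left 2 by adjusted p. For the difference of responses, the double threshold was passed by 2 genes with 75th percentile scaling, by 0 with slide as a block, and by 1 to 2 over the arrays left out (2 without CEM RES FK866 array 3). The replicate block kept SIRT1 called in CEM PA (0.66, adjusted p = 0.0424) and brought SIRT3 at A_33_P3325068 past the adjusted p (-0.74, adjusted p = 0.0361). Between the lines the block was the bare replicate number, which does not pair them. With it the call of SIRT7 at A_33_P3391727 was lost between the mock-treated lines, and no other sirtuin call by adjusted p changed. Counts over all probes that differed by more than 1.5 times were these. By adjusted p with FK866 in CEM PA, 347 became 3 with only the compared groups, 7 with slide as a block, 43 and 90 with the mean of probes and 1 probe per gene, 191 without a filter, 580 with normexp, 1218 with the replicate block, 1410 with array weights and 32 to 384 with arrays left out. By the double threshold there, 1524 became 617 with normexp and 963 and 953 with 1 probe or the mean of probes. In CEM RES, 295 by the double threshold became 37 with normexp, 98 with the stricter filter, 184 with array weights, 643 without a filter and 139 to 607 with arrays left out, and 0 by adjusted p became 3 without mock array 4. Between the lines, normexp gave 4818 instead of 8105 (mock) and 3996 instead of 6986 (FK866) by the double threshold, and 8186 by adjusted p under FK866 became 4189 or 5017 without either CEM PA FK866 array. For the difference of responses, 94 by adjusted p ranged from 7 with the mean of probes to 486 with the replicate block, and 1828 by the double threshold became 953 with normexp and 1186 and 1165 with 1 probe or the mean of probes.

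Reversals occurred in values near 0 that were not called. With FK866 in CEM PA, SIRT7 A_23_P66813 turned to 0.014 with normexp, SIRT2 A_33_P3258946 to 0.0069 and SIRT5 A_33_P3764802 to -0.21 with slide as a block, and SIRT7 A_33_P3391727 to -0.042 and SIRT5 A_33_P3764802 to -0.053 with the replicate block. In CEM RES, SIRT5 A_33_P3764802 turned to -0.056 with normexp and SIRT3 A_24_P85158 to -0.0020 with array weights. Between the mock-treated lines, SIRT5 A_23_P307955 turned to 0.017 with 75th percentile scaling, and SIRT7 A_23_P66813 to -0.021 and SIRT5 A_32_P151366 to -0.15 with array weights. Under FK866, SIRT2 A_33_P3258946 turned to 0.044 with normexp and SIRT7 A_23_P66813 to 0.041 with the replicate block. For the difference of responses, SIRT5 A_32_P151366 turned to -0.091 with normexp, SIRT5 A_33_P3764802 to 0.0050 with the deposited table, 0.24 with slide and 0.080 with replicate as a block, and SIRT7 A_23_P66813 to 0.069 and 0.070 with these blocks. The cause was not tested. Over the arrays left out, values of both signs were found with FK866 in CEM PA for SIRT2 A_33_P3258946 (-0.19 to 0.036), SIRT7 A_23_P66813 (-0.28 to 0.075), SIRT7 A_33_P3391727 (-0.042 to 0.20) and SIRT5 A_33_P3764802 (-0.053 to 0.18). In CEM RES they were SIRT5 A_33_P3764802 (-0.013 to 0.10) and SIRT4 (-0.0083 to 0.27). Between the lines they were SIRT7 A_23_P66813 (-0.15 to 0.20) and SIRT5 A_32_P151366 (-0.14 to 0.33) under mock treatment, and SIRT2 A_33_P3258946 (-0.16 to 0.059) and A_33_P3271800 (-0.17 to 0.080) under FK866. For the difference of responses they were SIRT5 A_32_P151366 (-0.20 to 0.27), SIRT7 A_23_P66813 (-0.28 to 0.070) and SIRT5 A_33_P3764802 (-0.15 to 0.080).

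The test of probe pairs over replicate numbers in place of arrays was chosen after seeing the data. All other sirtuin values kept their direction under the alternatives run. Slide as a block cannot be fitted between the lines, and the mean of probes was run for counts alone. With 2 FK866 arrays in CEM PA, leaving out 1 assumes that the remaining array varies like the other groups. All 13 probes were well above background. The dimmest, SIRT5 A_23_P307955, had the largest SE with FK866 in CEM PA (0.33), and its line difference under FK866 ranged from 0.14 with normexp to 0.90 with 75th percentile scaling, where it passed the adjusted p (0.0103).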
